A study of Mus musculus with 11 samples.

Results

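The genes that flank Csf1r on mouse chromosome 18 are the subject here. Csf1r encodes the receptor through which CSF-1 and IL-34 keep microglia alive, and Csf1r+/- mice carry 1 working copy of it. Csf1r lies at 61105572 to 61132149 of chromosome 18 (mm10). Members were the genes of the deposited table that start within about 10 Mb either side of it and have a mean of at least 10 normalized counts. Csf1r itself and 3 genes with excluded names (Cd74, Rps14 and Rps2-ps10) were set aside. Of 83 genes of the table in the window, 74 were members, out of 14739 genes in the whole table and 13223 with a mean of at least 10. Position, the minimum mean and the excluded names chose the members. No comparison between groups entered the rule, though Ppic and Bvht passed the minimum only through a single group.

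Genes close to a targeted locus are inherited with it. When a line with a targeted allele is bred onto another strain, a stretch of DNA either side of the target tends to travel with the allele, and neighbouring genes can also answer to a deletion in cis. A difference in these genes that follows the copy number of Csf1r is therefore what such a stretch, or an effect in cis, would leave in RNA. The labels give C57BL/6 as the background strain of every mouse. The allele of each read was not analysed here.

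RNA was sequenced in bulk from Tmem119+ microglia sorted from the cerebrum, 1 library per sample label. The libraries were 3 from Csf1r+/- mice (Csf1r_het), 2 from mice heterozygous for both genes, Csf1r+/- and Csf2+/- (Dhet), 3 from Csf2+/- mice (Csf2_het) and 3 from wild-type mice (WT). Thus 5 libraries held 1 Csf1r copy and 6 held 2. All Csf2_het and WT libraries came from an age of 21 months, as did Csf1r_het replicate 3 and Dhet replicate 1. Csf1r_het replicate 1 was taken at 20 months and Csf1r_het replicate 2 and Dhet replicate 2 at 24 months, so both 24-month libraries held 1 Csf1r copy. The labels name neither the construction of the alleles, nor pooling of mice, nor the number of backcrosses. With nothing in the labels on shared mice, p-values measure the spread between these libraries.

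A normalized count is the number of reads assigned to a gene divided by a size factor for the library, and 1 read was worth 0.479 to 1.48 normalized counts. The libraries held 21037819 to 53081638 reads. Csf1r had 17017 to 40567 normalized counts in the 5 libraries with 1 copy and 41261 to 93319 in the 6 with 2, so the sets did not overlap, though its log2 fold change of -1.03 (SE 0.34) did not pass over all genes tested (limma adjusted p = 0.95). The microglia marker Tmem119, used for the sort, had 15711 to 16736 normalized counts in Csf1r_het, 23328 to 30741 in Dhet, 18805 to 31939 in Csf2_het and 5432 to 19084 in WT. The 7 microglia markers, Tmem119 among them, summed to 215263 to 280339 in Csf1r_het and 303771 to 346702 in Dhet. Their sums were 337570 to 450120 in Csf2_het and 91959 to 231908 in WT. The 8 monocyte markers summed to 51588 to 65108 in Csf1r_het, 67917 to 74386 in Dhet, 13301 to 21960 in Csf2_het and 90131 to 174005 in WT. The 7 choroid plexus markers summed to 800270 to 1435000 in Csf1r_het, 233310 to 455717 in Dhet, 753973 to 1118320 in Csf2_het and 284464 to 632139 in WT. The share of counts from haemoglobin genes ran from 16.1% (WT replicate 1) to 58.8% (Csf1r_het replicate 2). In bulk RNA of this kind, fewer cells of a type and less RNA per cell cannot be told apart.

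The first question was whether libraries with 1 Csf1r copy differed from those with 2 in these genes more often than in genes elsewhere on the chromosome. No member passed. In the comparison of Csf1r_het and Dhet with Csf2_het and WT, 0 of 74 members, 0 of 216 genes elsewhere on chromosome 18 and 0 of 13223 genes in all reached a limma adjusted p under 0.05, a background of 0%. The lowest adjusted p among members was 0.95. At an unadjusted p under 0.05 there were 8 members (10.8%), against 7 genes elsewhere on chromosome 18 (3.24%) and a background of 4.79% of all genes tested. Of the 8 members, 3 were higher and 5 lower with 1 copy. Of those 3, Ppic passed the minimum mean only through Dhet, where it was high (mean 6.75 over the other groups), and without it the count was 7 of 73 (9.59%). The corresponding numbers elsewhere on the chromosome were 2 and 5, and the background was 2.03% higher and 2.77% lower. With edgeR on the recovered reads, 0 members had an adjusted p under 0.05 (background 0%) and 8 an unadjusted p under 0.05 (background 5.13%). With DESeq2 the counts were 0 of 72 (background 0.323%) and 9 of 72 (background 6.52%).

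That difference in share rested on few libraries. Without Dhet replicate 1 it was 4.05% of members and 4.17% of genes elsewhere on chromosome 18. Without both 24-month libraries it was 8.11% of members and 7.87% elsewhere, and with the 21-month libraries alone it was 2.7% and 5.09%. In each of these fits Dhet had a single library, and with the 21-month libraries alone Csf1r_het had a single library too. A group left with a single library, here or in a fit named below, was assumed to vary like the others. In the other fits with 1 library left out, members ran from 6.76% to 13.5% and genes elsewhere from 3.24% to 6.02%. No test of the share itself was made, since neighbouring genes in the same 11 libraries are not independent.

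**Figure D1:**
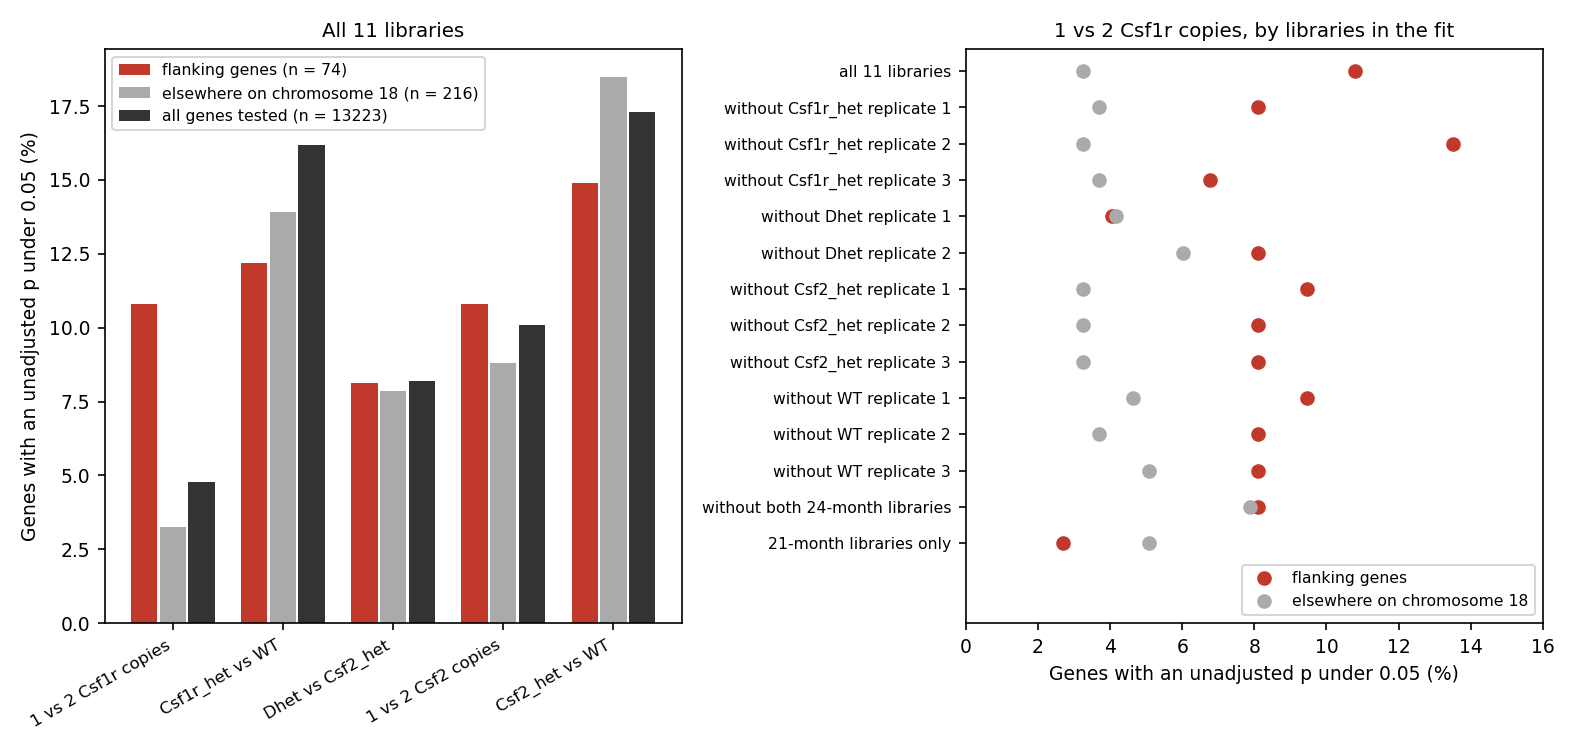
Left, the share (%) of genes with an unadjusted limma p under 0.05 in 5 comparisons, as bars for 74 flanking genes, 216 genes elsewhere on chromosome 18 and 13223 genes in all. Right, the share for 1 against 2 Csf1r copies when libraries are left out; the flanking genes lie at 10.8% with all 11 libraries and at 2.7% with the 21-month libraries alone.

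The same count was taken in comparisons that bear on the locus in other ways. In Csf1r_het against WT, 1 of 74 members passed an adjusted p of 0.05 (1.35%), beside 1 of 216 elsewhere on chromosome 18 and a background of 1.32%. At an unadjusted p under 0.05 there were 9 members (12.2%) against a background of 16.2%. In Dhet against Csf2_het, which shares no library with it, 0 members passed, beside 0 elsewhere on the chromosome and a background of 0.0227%, and 6 members (8.11%) had an unadjusted p under 0.05, against a background of 8.19%. Loss of a Csf2 copy, a gene of another chromosome, pooled over Csf1r genotypes, gave 0 adjusted calls among members (background 0.718%). It gave 8 members at an unadjusted p under 0.05 (10.8%), the same number as the Csf1r comparison, beside 8.8% elsewhere on chromosome 18 and a background of 10.1%. In Csf2_het against WT 11 members had an unadjusted p under 0.05 (14.9%), against a background of 17.3%. By these limma counts the members' shares lay near or below the background, except that the adjusted share in Csf1r_het against WT (1 gene) was slightly above it.

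Other tools gave these counts of members at an adjusted p under 0.05. In Csf1r_het against WT edgeR called 0 (background 0.73%) and DESeq2 called Mbd2 and Tubb6 (2.78% of 72 members, background 5.67%). In Dhet against Csf2_het edgeR called 0 (background 0.0219%) and DESeq2 called Mppe1, Gm22567 and Cidea (4.17%, background 1.26%). For loss of a Csf2 copy edgeR called 0 (background 0.511%) and DESeq2 called Tubb6, Pmaip1 and Arhgef37 (4.17%, background 2.48%). In Csf2_het against WT edgeR called 2 members (2.7%, background 3.34%) and DESeq2 called 9 of 72 (12.5%, background 8.47%, and 8.8% elsewhere on chromosome 18). With DESeq2 the members' share was thus above the background in the last 3 of these comparisons, and below it in Csf1r_het against WT. Elsewhere on chromosome 18 the DESeq2 shares were 6.02% in Csf1r_het against WT, 1.39% in Dhet against Csf2_het and 0.926% for Csf2 copy loss.

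In size the differences were small beside their errors. The median of the absolute log2 fold change between 1 and 2 Csf1r copies was 0.37 over members, 0.26 over genes elsewhere on chromosome 18 and 0.32 over all genes tested. The median standard error of a member was 0.41. In 50 of 74 members the log2 fold change was under 0.5 in size, and in 7 (9.46%) it was over 1, against 11.6% elsewhere on chromosome 18 and 12.6% of all genes. Signs were mixed, with 39 members above 0 and 35 below, and a median of 0.02 beside -0.04 over all genes.

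**Figure D2:**
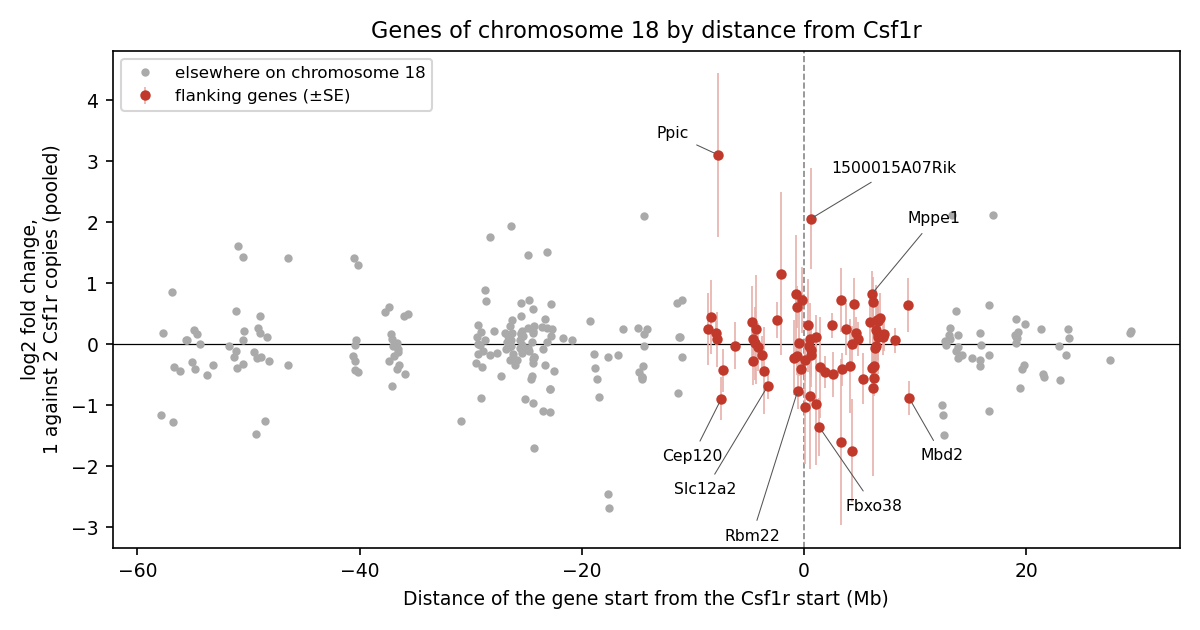
Each point is a gene of chromosome 18 at the distance of its start from the Csf1r start (Mb, x axis) and its log2 fold change between 1 and 2 Csf1r copies (y axis); red points are the 74 flanking genes with their standard error and grey points the 216 others. The named genes are the 8 members with an unadjusted p under 0.05, which lie from 7.70 Mb before Csf1r to 9.46 Mb after it.

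The members did not rank by distance from Csf1r. Of the 17 members within 1 Mb, 2 had an unadjusted p under 0.05 and the median absolute log2 fold change was 0.31. The 9 members between 1 and 3 Mb held 1 such gene (0.46), the 19 between 3 and 5 Mb held 1 (0.27), and the 29 between 5 and 10 Mb held 4 (0.38). The 27 members on the centromeric side held 4 and the 47 on the telomeric side held 4.

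In the closest members the sets overlapped. Camk2a, a calcium/calmodulin-dependent kinase subunit abundant in neurons, starts 0.18 Mb before Csf1r. It had 156, 419 and 163 normalized counts in Csf1r_het, 194 and 245 in Dhet, 431, 83.3 and 114 in Csf2_het and 58.4, 160.1 and 139 in WT. The ranges overlapped, and 6 neuron markers, Camk2a among them, summed to 931 to 3411 in Csf1r_het, 1563 to 1657 in Dhet, 605 to 2065 in Csf2_het and 435 to 785 in WT. The part of that RNA in the level of Camk2a was not tested. Slc26a2, a sulfate transporter that starts 0.087 Mb after Csf1r, had 359, 1185 and 439 in Csf1r_het, 742 and 474 in Dhet, 881, 683 and 602 in Csf2_het and 781, 729.9 and 573 in WT. The lowest and the highest of its 11 values both lay in Csf1r_het. Pde6a, a subunit of the phosphodiesterase of rod photoreceptors, spanned 2.87 (Dhet replicate 2) to 409 (WT replicate 2).

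The other members within 1 Mb had adjusted p-values of 0.95 or above as well. Csnk1a1, casein kinase 1 alpha, had a narrow range, with 3019 to 3836 in Csf1r_het, 4846 and 4036 in Dhet, 3464 to 4266 in Csf2_het and 3607 to 4274 in WT (log2 fold change -0.02, SE 0.19, limma adjusted p = 0.992). Ndst1, an enzyme of heparan sulfate synthesis, stood at 0.02 (SE 0.54), Grpel2, a mitochondrial co-chaperone, at -0.10 (SE 0.44) and Pcyox1l at 0.09 (SE 0.58). Smim3 stood at 0.61 (SE 0.34), Tcof1, a nucleolar factor of ribosome synthesis, at -0.41 (SE 0.42), the dynactin subunit Dctn4 at -0.19 (SE 0.30) and the lincRNA Bvht at -0.85 (SE 1.20). Arhgef37, a guanine nucleotide exchange factor, had 25.3 to 97.8 normalized counts in Csf1r_het, 12 and 71.9 in Dhet, 6.81 to 11.5 in Csf2_het and 55.1 to 257 in WT. Its lowest libraries were thus the 3 of Csf2_het, a group with 2 Csf1r copies (-3.72 against WT, limma adjusted p = 0.065).

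The 2 interferon-inducible GTPases among the members, Iigp1 and Gm4951, lie within 1 Mb of Csf1r. Iigp1 had 38.3, 1279 and 55.8 in Csf1r_het, 197 and 31.6 in Dhet, 29.2, 194 and 19.1 in Csf2_het and 66.8, 85.4 and 68.8 in WT. Gm4951 had 99, 843 and 132 in Csf1r_het, 48.1 and 90.3 in Dhet, 242, 199 and 94 in Csf2_het and 205, 87.4 and 97.5 in WT. In both genes Csf1r_het replicate 2, a 24-month library, held the highest value of the 11, and the other Csf1r_het libraries lay below the range of WT for Iigp1 and within it for Gm4951. Neither passed (log2 fold change 0.82, SE 0.97, and -0.22, SE 0.62, both with a limma adjusted p of 0.962 or above). These genes belong to a family of close copies, so reads may be split between them and other copies.

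Cep120 was the 1 member in which the 5 libraries with 1 Csf1r copy did not overlap the 6 with 2. It encodes a centriole protein and lies at 53681724 to 53744547 on the reverse strand, 7.42 Mb before Csf1r. It had 156, 124 and 263 normalized counts in Csf1r_het, 156 and 193 in Dhet, 323, 369 and 316 in Csf2_het and 301, 292 and 333 in WT. Every library with 1 copy lay below every library with 2, at 179 ± 53.2 (SD, n = 5) and 322 ± 27.1 (SD, n = 6), and Csf2_het lay with WT. The log2 fold change was -0.89 (SE 0.35), which did not pass over all genes tested (limma adjusted p = 0.95). By group it was -0.84 in Csf1r_het against WT and -0.94 in Dhet against Csf2_het. Non-overlap was found in 1 of 74 members (1.35%), in 2 of 216 genes elsewhere on chromosome 18 (0.926%) and in a background of 0.272% of all genes, 0.113% higher and 0.159% lower. With each library centred on its median, no member was without overlap. The genes elsewhere were Pik3c3, a phosphatidylinositol 3-kinase of autophagy 30.8 Mb before Csf1r (log2 fold change -1.26, SE 0.34), and Iws1, a transcription elongation factor 29.0 Mb before it (-0.88, SE 0.26), which both had a lower p than any member.

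Fbxo38 also ran lower with 1 copy. It encodes a substrate adaptor of a ubiquitin ligase and starts 1.40 Mb after Csf1r. It had 257, 84.5 and 379 normalized counts in Csf1r_het, 113 and 353 in Dhet, 395, 236 and 669 in Csf2_het and 665, 833 and 561 in WT. The 5 libraries averaged 237 ± 135 and the 6 others 559.8 ± 214 (SD), but Csf2_het replicate 2 lay among the libraries with 1 copy. The log2 fold change of -1.36 (SE 0.47) did not pass (limma adjusted p = 0.95).

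In Mbd2 and Rbm22, Csf2_het, with 2 Csf1r copies, stood with the groups that had 1 copy. Mbd2, a repressor that binds methylated DNA, had 722, 554 and 769 in Csf1r_het, 882 and 312 in Dhet, 717, 664 and 636 in Csf2_het and 1887, 1878 and 1603 in WT. All 8 heterozygous libraries lay below the 3 WT libraries, with log2 fold changes of -1.40 in Csf1r_het against WT (limma adjusted p = 0.0919), -1.41 in Csf2_het against WT (0.0591) and -0.35 in Dhet against Csf2_het (0.87). Rbm22, a spliceosome protein 0.545 Mb before Csf1r, had 354, 569 and 600.1 in Csf1r_het, 368 and 604 in Dhet, 596, 710.1 and 535 in Csf2_het and 1148, 1726 and 666 in WT. Here Csf2_het overlapped both heterozygous groups with 1 copy, and WT was high in 2 libraries. Slc12a2, the sodium, potassium and chloride cotransporter NKCC1, had 2199, 3017 and 3249 in Csf1r_het, 2262 and 1127 in Dhet, 2958, 2839.8 and 2910.3 in Csf2_het and 3638, 4051 and 4092 in WT. WT again lay above all other libraries, and Csf2_het lay within the range of Csf1r_het. The lowest value was that of Dhet replicate 2, a 24-month library, and the log2 fold change was -0.49 in Csf1r_het against WT and -0.86 in Dhet against Csf2_het.

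WT lay above all 8 heterozygous libraries in 5 members, Mbd2, Slc12a2, Tubb6, Napg and Zfp608, which is 6.76% of the members beside a background of 4.74%. No member had WT below all of them (background 2.07%). Napg, a membrane fusion factor, averaged 519 ± 105 in Csf1r_het, 648 ± 299.9 in Dhet, 615 ± 54.1 in Csf2_het and 967 ± 104 in WT. Zfp608, a zinc finger gene, averaged 279.6 ± 39.2 in Csf1r_het, 238 ± 9.66 in Dhet, 162 ± 79 in Csf2_het and 477 ± 119 in WT (SD, n = 3, 2, 3 and 3). The monocyte marker sum was likewise above all 8 heterozygous libraries in each WT library. Taken singly, only Hp among its markers was, and the others overlapped. The part of monocyte RNA in these 5 members was not tested.

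**Figure D3:**
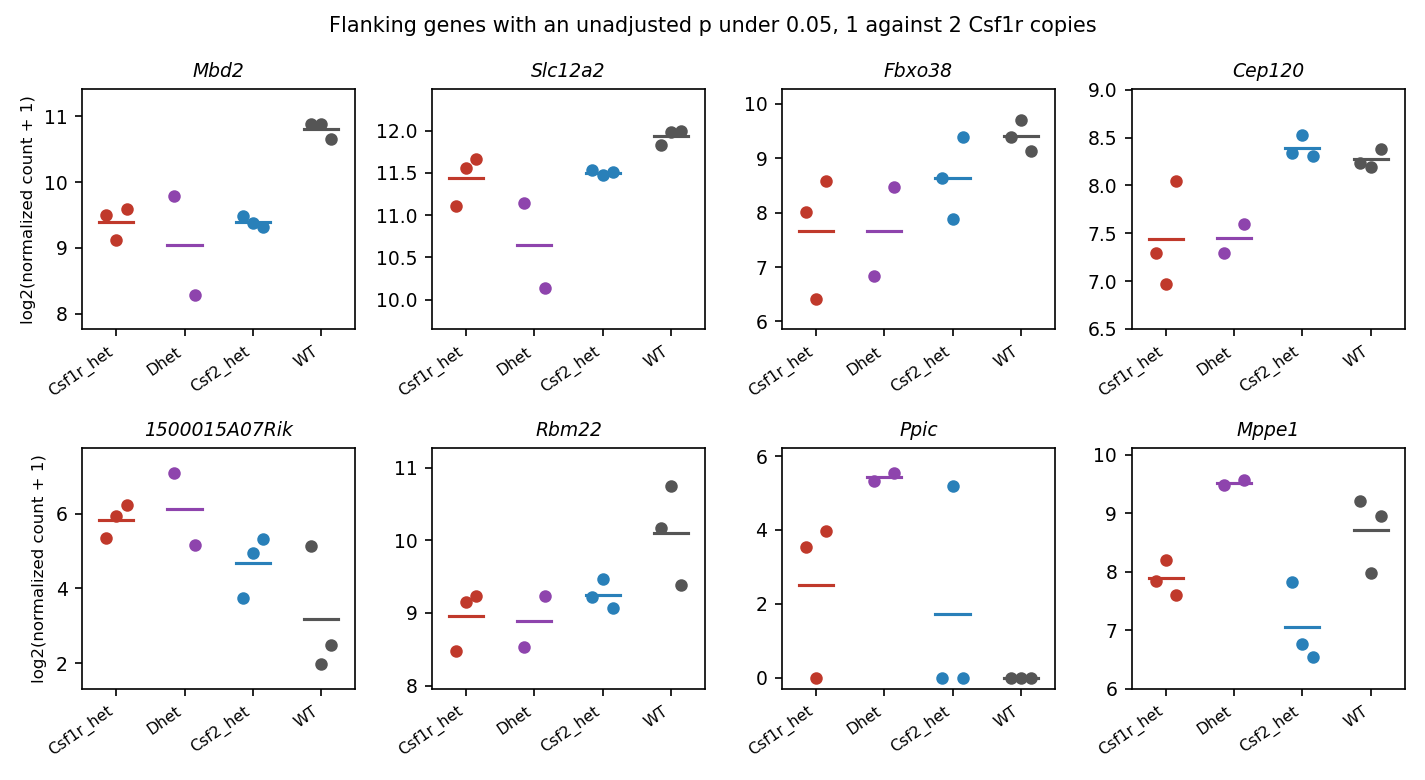
Normalized counts on a log2 scale with 1 added (y axis) of the 8 flanking genes with an unadjusted p under 0.05 between 1 and 2 Csf1r copies, by group (x axis). Points are libraries and lines group means; Csf2_het stands with WT in Cep120 and away from WT in Mbd2.

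The 3 members that were higher with 1 copy had few reads or were highest in Dhet. 1500015A07Rik, an antisense RNA that overlaps Afap1l1 by 5657 bases, had 39.6, 60.8 and 74.8 in Csf1r_het, 137 and 35.1 in Dhet, 12.5, 29.7 and 39.5 in Csf2_het and 34, 2.91 and 4.59 in WT. These values rest on 30 to 182 reads with 1 copy and 3 to 62 reads with 2, and the ranges overlapped (log2 fold change 2.06, SE 0.83, limma adjusted p = 0.95). No source used here says whether the counting used strand, and without it its reads cannot be told apart from those of Afap1l1, an adaptor protein of the actin cytoskeleton (-0.18, SE 0.53).

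Ppic, the prolyl isomerase cyclophilin C, starts 7.70 Mb before Csf1r. It had 10.6, 0 and 14.7 in Csf1r_het, 39 and 45.4 in Dhet, 0, 35.4 and 0 in Csf2_het and 0 in each WT library. Both Dhet libraries were above all others, but Csf2_het replicate 2 held 74 reads of the gene and Csf1r_het replicate 2 held none. Against a floor of 3 reads over the WT group, the mean was at least 9.17-fold higher in Csf1r_het and at least 45.9-fold higher in Dhet, and it was at least 12.8-fold higher in Csf2_het. These floors cover counting error only. Ppic and Bvht, with means of 13.2 and 10.9, lay just inside the minimum of 10, and Gm24514, at 8.85, just outside. Bvht passed it only through Csf2_het (mean 8.81 over the other groups).

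Tubb6, a beta tubulin, was the member called in Csf1r_het against WT. It lies at 67390717 to 67402748 on the forward strand, 6.29 Mb after Csf1r. It had 686, 307 and 417 normalized counts in Csf1r_het, 710.4 and 440.4 in Dhet, 273, 339 and 337 in Csf2_het and 2303, 1327 and 1652 in WT. All 8 heterozygous libraries lay below the 3 WT libraries, whatever their Csf1r copy number. Tubb6 fell in Csf1r_het against WT (log2 fold change -1.95, SE 0.40, limma adjusted p = 0.0371) and in Csf2_het against WT (-2.44, SE 0.40, limma adjusted p = 0.00485), comparisons that share the WT libraries. In Dhet against Csf2_het it stood at 0.83 (SE 0.44, limma adjusted p = 0.688). The Csf1r_het call held in 3 of 11 fits with 1 library left out, with adjusted p from 0.0248 to 0.19, while the Csf2_het call held in all 11. Without both 24-month libraries the adjusted p in Csf1r_het was 0.0853, and with edgeR it was 0.0535.

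Malt1 was the other member called in Csf2_het against WT, where 2 of 74 members passed (2.7%, background 3.65%). With DESeq2, Mbd2, Mppe1, Pmaip1, Arhgef37 and Zfp608 were also lower and Aldh7a1 and Snx24 higher in Csf2_het. The limma count was 5 without Csf1r_het replicate 2 and 1 without any single Csf2_het library or without WT replicate 1. Malt1 encodes the paracaspase that carries signals from CARD proteins to NF-kB. It had 308, 424 and 357 in Csf1r_het, 527 and 325 in Dhet, 178, 222 and 219 in Csf2_het and 846, 846 and 524 in WT. Csf2_het was lowest and did not overlap any other group, and its log2 fold change against WT was -1.81 (SE 0.40, limma adjusted p = 0.0268). Between 1 and 2 Csf1r copies Malt1 stood at 0.00 (SE 0.30), with -1 in Csf1r_het against WT and 1.01 in Dhet against Csf2_het. The call was lost without Csf2_het replicates 1, 2 or 3 or WT replicates 1 or 2 (adjusted p up to 0.124). The monocyte marker sums given above run in the same order as Malt1 and Tubb6, highest in WT and lowest in Csf2_het. Their part in these genes was not tested.

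The effect of a lost Csf1r copy was then compared between Csf2 genotypes, as the interaction term, the difference between Dhet against Csf2_het and Csf1r_het against WT. Of 74 members 2 passed (2.7%, beside 1.39% elsewhere on chromosome 18 and a background of 1.85%), Tubb6 and Mppe1. At an unadjusted limma p under 0.05 there were 8 members (10.8%), against 18.1% elsewhere on chromosome 18 and a background of 18%. By that count the members' share lay below the background. Tubb6 and Mppe1 also passed an adjusted p of 0.05 with edgeR (background 1.47%), and with DESeq2 Cidea, Lmnb1 and Malt1 passed as well (background 6.78%). Tubb6 had an interaction of 2.77 (SE 0.59, limma adjusted p = 0.0332). Mppe1, a phosphodiesterase that trims the anchor of GPI-linked proteins, had 228, 295 and 194 in Csf1r_het, 717 and 755 in Dhet, 226, 108 and 92.7 in Csf2_het and 589.5, 252 and 493 in WT. Both Dhet libraries were above all others. Its log2 fold change was -0.83 (SE 0.50) in Csf1r_het against WT and 2.48 (SE 0.56) in Dhet against Csf2_het, an interaction of 3.30 (SE 0.76, limma adjusted p = 0.0442). Mppe1 overlaps Gnal on the other strand by 1263 bases. The choroid plexus marker sums given above were lower in Dhet and WT and higher in Csf1r_het and Csf2_het, the reverse of the Mppe1 means. Most of each sum was Ttr. Of the other markers Folr1 followed that order without overlap. Otx2, Clic6, Kcne2 and Kl followed it by group mean, with libraries that overlapped. Aqp1 did not follow it, with 138 to 352 in Csf1r_het and 249 and 1232 in Dhet. The part of choroid plexus RNA in the level of Mppe1 was not tested. The interaction calls held in 4 of 11 fits with 1 library left out for Tubb6 and in 2 of 11 for Mppe1. Without Dhet replicate 1 the adjusted p was 0.146 for Tubb6 and 0.140 for Mppe1.

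**Figure D4:**
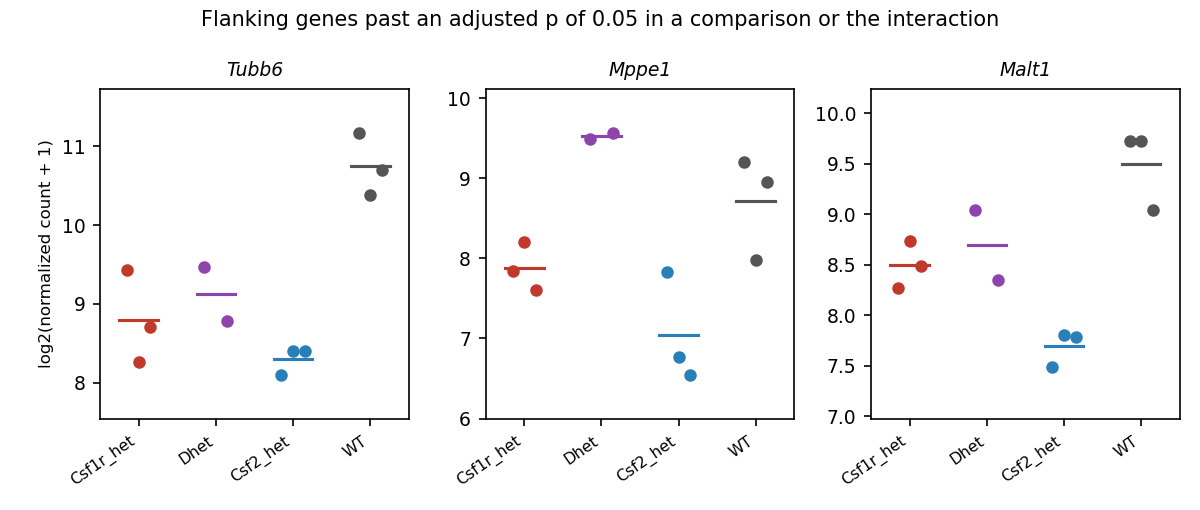
Normalized counts on a log2 scale with 1 added (y axis) of Tubb6, Mppe1 and Malt1 by group (x axis). Points are libraries and lines group means; the WT libraries are above all others in Tubb6, both Dhet libraries in Mppe1, and Csf2_het is below all other groups in Malt1.

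Csf1r_het against WT and Dhet against Csf2_het share no library, so a difference carried with the Csf1r allele can be looked for in both. The sign was the same in 30 of 74 members (40.5%, 95% Clopper-Pearson interval 29.3% to 52.6%, which treats genes as independent), 16 of them higher and 14 lower. It was the same in 32.9% of genes elsewhere on chromosome 18 and in 37% of all genes tested. Across genes Pearson's r between the 2 sets of log2 fold changes was -0.17 over members, -0.25 elsewhere on the chromosome and -0.26 over all genes. The points share the same 11 libraries and are not independent. Within 1 Mb of Csf1r the sign was the same in 9 of 17 members. Cidea, a lipid droplet protein, lay farthest towards opposite signs, with 21.1, 23.7 and 23.2 normalized counts in Csf1r_het, 0 in both Dhet libraries, 66.8, 0 and 187 in Csf2_het and 0, 0 and 19.5 in WT. Its zeros fell in 3 of the 4 groups, and it did not pass with limma in either comparison.

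**Figure D5:**
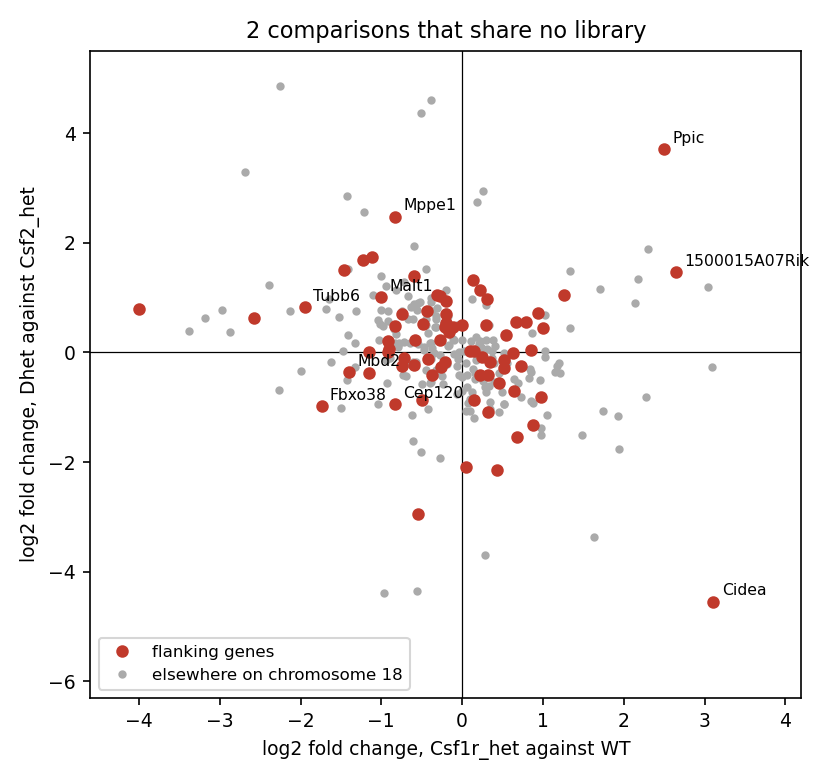
Log2 fold change of each gene in Csf1r_het against WT (x axis) and in Dhet against Csf2_het (y axis), with 74 flanking genes in red and 216 genes elsewhere on chromosome 18 in grey. Points at the lower left and upper right have the same sign in both, which is the case for 40.5% of the flanking genes and 32.9% of the others.

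By role, 54 of the 74 members were in a list and 20 in none. Over all genes tested 4.79% had an unadjusted p under 0.05, which is the background for these counts. Of 9 members in the list for transcription and chromatin, 3 had an unadjusted p under 0.05, Mbd2, Fbxo38 and Rbm22, all lower, and the list's median was -0.18. Of these, Fbxo38 is a ubiquitin ligase adaptor and Rbm22 a splicing factor. Of 12 in trafficking, membrane or secretion 2 did, Slc12a2 and Ppic, with a median of 0.13. Of 9 in the nuclear envelope, cell cycle and kinase list 2 did, Cep120 and Mppe1, with a median of 0.01. Mppe1, an enzyme of GPI anchors, and Ndst1, an enzyme of heparan sulfate, do not have the role that list is named for. None did among 12 genes listed under mitochondria, metabolism and translation (median -0.04) or 5 listed under immune signalling and cell death. Nor did any among 4 listed as neuronal (0.38), both GTPases (0.30) and the single gene listed as vascular, Afap1l1. Further genes do not have the role of their list. Among them are Gnal, Phax and Psmg2 in the mitochondrial list, Arhgef37 in the neuronal list and Prrc1 in the transcription list. The median over all genes tested was -0.04, and no list had an adjusted call between 1 and 2 copies.

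Among the immune genes, Pmaip1, which encodes the cell death protein NOXA, had 165, 593 and 214 in Csf1r_het, 146 and 137 in Dhet, 109.5, 213 and 119 in Csf2_het and 798, 469.8 and 610.5 in WT. It was thus high in WT and in Csf1r_het replicate 2 (log2 fold change between 1 and 2 copies -0.57, SE 0.42). Ptpn2, a phosphatase that dampens JAK-STAT signals, averaged 507 ± 239 in Csf1r_het, 797 ± 57 in Dhet, 307 ± 61.1 in Csf2_het and 721 ± 231 in WT. Ptpn2 did not pass (0.40, SE 0.34).

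The members with the most counts were Fech, Sec11c, Csnk1a1 and Nars, a ranking by reads that does not take gene length into account. Fech, the enzyme that puts iron into heme, had 7079.5, 34804 and 8819 in Csf1r_het, 17938 and 24103 in Dhet, 10597, 6269.9 and 8818 in Csf2_het and 14997, 3644 and 30366 in WT. Csf1r_het replicate 2, with the highest share of haemoglobin counts, also had the highest Fech value. Across the 11 libraries log2 Fech and the log2 sum of 4 haemoglobin genes had Pearson's r = 0.19 (permutation p = 0.582) and Spearman's rho = 0.11 (permutation p = 0.754), and r was -0.18 without the 2 libraries farthest from the median of the sum. With the sum of 3 other erythroid markers, Alas2, Slc4a1 and Epb42, r was 0.98 (permutation p = 1e-05, the smallest that 100000 permutations can give, and 2e-05 adjusted over both relations). Spearman's rho was 0.95 (permutation p = 3e-05, adjusted 6e-05), and r was 0.97 without the 2 libraries farthest from the median. Both relations were chosen with the data in view. Fech thus varied between libraries with these 3 erythroid genes, of which Alas2 has the most counts. Alas2, the first enzyme of heme synthesis in red cells, had 35436, 129113 and 32748 in Csf1r_het, 74748 and 84979 in Dhet, 55897, 30477 and 38712 in Csf2_het and 52155, 11750 and 133529 in WT. Sec11c, a signal peptidase subunit, stood at 0.19 (SE 0.27), and Nars, the cytosolic asparaginyl-tRNA synthetase, at -0.41 (SE 0.28), with a value of 8244 in WT replicate 2 against 2469 to 4599.9 in the other libraries. Impa2, an inositol monophosphatase, stood at 0.69 (SE 0.41).

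Single libraries set many of the extremes. WT replicate 2 held the highest value in 13 of 74 members (17.6%), among them Nars, Tcof1 and Pde6a, and the lowest in 14 of 70 members that had a single lowest library (20%). Over all genes tested those shares were 17.5% and 18.1%. Csf1r_het replicate 2 held the highest value in 9 members (12.2%) and the lowest in 10 (14.3%), against 13.4% and 19.3% over all genes. Of the 74 members, 68 had reads in every library, 13 had a mean of at least 1000 normalized counts and 7 a mean under 50.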

How the data were processed

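Per the submitters' processing notes, kallisto 0.43.1, DESeq2 (no version named) and the mm10 build were used. The deposited signal is 1 normalized count per gene and library. Its values were whole multiples of 1 step per library (100% within 0.02 reads), as gene counts divided by a size factor are, and the recovered reads were used for edgeR 4.0.16 and DESeq2 1.42.0 as alternatives. Groups came from the sample titles.

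Limma 3.58.1 (R 4.3.3, trended prior, 7 residual and 5.90 prior degrees of freedom) was fitted to log2(normalized count + 1) of 13223 genes with a mean of at least 10, over 4 groups. Fold changes of low genes can therefore lie below or above those of edgeR. In Csf1r_het against WT Ppic stood at 2.50 with limma and 6.39 with edgeR, and Cidea at 3.11 and 1.86. The comparison of 1 with 2 Csf1r copies sets the average of the Csf1r_het and Dhet means against that of the Csf2_het and WT means. Benjamini-Hochberg adjustment covered all genes tested, with calls at an adjusted p under 0.05. The interaction, the counts at an unadjusted p under 0.05, Csf2_het against WT and the comparison of WT with all heterozygotes were added with results in view. Simulated data with known changes were used to check the fit.

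Named genes were every member within 1 Mb of Csf1r, the 8 with the lowest p, those without overlap, the 4 with the highest mean, the GTPases, up to 2 per role list and, elsewhere on chromosome 18, the 4 with the lowest p, of which Slc14a1 (log2 fold change 2.11) and Nfatc1 (-0.72) are not described further. Tubb6, Malt1, Napg, Zfp608, Cidea, Gm22567, Lmnb1, Aldh7a1, Snx24 and the group values of Arhgef37 fell outside this rule and were picked with their values known. The members and lists were chosen with earlier results of these data known. All 74 members matched GENCODE vM21 by identifier, 32 of them with the same coordinates, and coordinates printed are those of the deposited table. Of 121 protein-coding genes annotated there in the window, 71 were in the table, and the others were not analysed here. The 5 genes under the mean were Gm24514, Gm23335, Gm44491, Mir5107 and Gm24384. Some marker genes are not reported here.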

Additional observations from a re-analysis of the deposited data

Results flagged for a closer look

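Tubb6 and Mppe1 differed between Csf2 genotypes in the effect of a lost Csf1r copy, by the interaction term. They were picked by that adjusted p. They are 2 of 74 members (2.7%), beside 1.39% elsewhere on chromosome 18 and a background of 1.85%. As given above, neither call held in most fits with 1 library left out. For Tubb6 the interaction was 2.77 on the log2 scale (limma adjusted p = 0.0332): 0.83 in Dhet against Csf2_het and -1.95 in Csf1r_het against WT. For Mppe1 it was 3.30 (limma adjusted p = 0.0442), with 2.48 and -0.83. With edgeR both passed, at adjusted p = 0.0425 and adjusted p = 0.0426. The interaction uses all 4 groups, of which Dhet has 2 libraries, 1 of them at 24 months. Without both 24-month libraries the adjusted p was 0.0403 for Tubb6 and 0.0718 for Mppe1. No group had the 4 libraries needed to look for a library far from the others of its group.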

How the results depend on the processing

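Members called between 1 and 2 Csf1r copies stayed at 0 under every alternative run. In Csf1r_het against WT the count of 1 became 0 with edgeR, 2 with DESeq2, and 0 without both 24-month libraries, with 21-month libraries alone, with Csf1r_het and WT alone, with a replicate block and in windows of 5 or 2 Mb; it ran from 0 to 2 with 1 library left out. DESeq2 gave 3 in Dhet against Csf2_het and 3 for Csf2 copy loss, where leaving out 1 library gave 0 to 0. The 2 calls in Csf2_het against WT became 9 with DESeq2, 5 without both 24-month libraries and 1 with the block (1 to 5 with 1 library left out). The 2 interaction calls became 1 with no filter, 5 with DESeq2, 1 after centring, 1 without both 24-month libraries, 0 with 21-month libraries alone and 0 with the replicate block (0 to 2 with 1 library left out). The count of members without overlap, 1, became 0 after centring, 2 without both 24-month libraries, 2 with 21-month libraries alone and 0 in both smaller windows (1 to 2 with 1 library left out). The 8 members at an unadjusted p under 0.05 became 2 with 21-month libraries alone, 5 with the block, 4 in a 5 Mb window and 3 in a 2 Mb window (3 to 10), and the 7 genes elsewhere became 17 without both 24-month libraries and 11 with 21-month libraries alone (7 to 13). The same-sign share ran from 32.4% to 51.4% and the median absolute log2 fold change from 0.30 to 0.45 with 1 library left out. The causes of these changes were not tested, beyond the fewer members that smaller windows hold.

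Replicate numbers did not pair the libraries: deviations of 15 same-numbered pairs correlated at -0.214 to 0.0616, none over 0.1. Of 30 pairs with different numbers 7 were over 0.1, the highest at 0.314 between Csf2_het replicate 3 and WT replicate 2. What these pairs share was not tested. With the block, adjusted p-values were 0.0793 for Tubb6 in Csf1r_het against WT, 0.0667 for Malt1 in Csf2_het against WT, and 0.0747 and 0.111 for the interactions of Tubb6 and Mppe1.

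Among members named for their position, none of which passed, the sign between 1 and 2 copies turned in some settings. Gm4951 and Pcyox1l stood at 0.020 and -0.23 with edgeR and at 0.047 and -0.21 with DESeq2. Without both 24-month libraries Arhgef37 stood at -0.52, Afap1l1 at 0.081 and Ndst1 at -0.80; with 21-month libraries alone Pde6a stood at 0.051, Arhgef37 at -0.86, Afap1l1 at 0.56 and Ndst1 at -0.85. With the block Afap1l1 stood at 0.0051. With 1 library left out the ranges were -0.70 to 0.072 for Gm4951, -0.51 to 0.15 for Afap1l1, -0.090 to 0.042 for Csnk1a1, -0.63 to 0.66 for Ndst1, -0.55 to 0.35 for Grpel2, -0.40 to 0.37 for Pcyox1l and -0.31 to 0.93 for Arhgef37. Depth was 21037819 to 53081638 reads, and members with few reads, such as Ppic, are limited by counting error.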
